A study of Schizosaccharomyces pombe with 6 samples.

Results

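The 138 *mug* and *meu* genes of fission yeast are described here, out of 7008 genes listed in each of 4 expression tables. They were taken by name, as all genes whose symbol begins with *mug* or *meu* and a number. No measured value entered this rule, though earlier results of these data were known when it was chosen. The 114 *mug* genes (meiotically upregulated genes) and 24 *meu* genes (meiotic expression upregulated) take their names from their induction when *Schizosaccharomyces pombe* cells enter meiosis. Of these genes 133 code for proteins and 5 are listed as long non-coding RNAs, and 66 lie on chromosome I, 38 on chromosome II and 34 on chromosome III. RNAseq was performed on vegetative cultures in 6 conditions with 1 library each. In rich medium (YE) the libraries came from wild type cells that spent the last 15 minutes at 36°C after growth at 24°C, *mas5Δ* cells at 24°C, *ssa2Δ* cells at 24°C, and wild type cells kept at 24°C, against which the first 3 were compared. In minimal medium without thiamine (MM) they came from *nmt1:hsf1* cells, in which the strong *nmt1* promoter, active when thiamine is absent, replaces that of *hsf1*, and from wild type cells as their control. Mas5 is a DNAJ (Hsp40) co-chaperone, Ssa2 is an Hsp70 chaperone, and Hsf1 is the transcription factor that induces chaperone genes upon heat stress.

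Fission yeast cells proliferate as haploids, and mate and enter meiosis only when starved. The regulator Ste11 starts this programme, the RNA-binding protein Mei2 drives entry into meiosis, and the forkhead factor Mei4 then switches on the middle meiotic genes through a promoter sequence called the FLEX element. In growing cells, the RNA-binding protein Mmi1 directs meiotic transcripts to the exosome for degradation. Most *mug* genes were named from expression profiling and many of their proteins have no described function. Those with one act in homologue pairing, RNA binding, forespore membrane and spore wall formation, membrane traffic, signalling and metabolism. Stress-responsive transcription in this yeast runs through Hsf1 and also through Atf1, which binds the CRE element.

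The members shared a promoter sequence more often than other genes did. The core of the FLEX element, GTAAACA, was searched on both strands from 250 bases before to 50 bases after the annotated gene start in the RefSeq assembly ASM294v3, and was found in 64 of 133 protein-coding members (48.1%), against 844 of 5112 protein-coding genes (16.5%). More than 1 copy was present in 24 members (18.0%), against 2.03% of all genes. The core of the CRE, TGACGT, was found in 9 members (6.77%; all genes 5.91%), the heat shock element GAANNTTC in 10 members (7.52%; all genes 11.1%) and the TR box of Ste11, TTCTTTGTT, in 3 members (2.26%; all genes 2.0%). None of these motifs overlaps another in the sequences printed here. A match of letters is a description and not a binding site. The 250 bases upstream of the annotated gene start are shown for 6 members to which the results return, 5′ to 3′ on the strand of the gene, with FLEX and CRE cores of either strand in capitals. *mug143* has 3 CRE cores and 1 FLEX core, *mug147* and *mug190* have 1 CRE core each, *mug28* and *mug109* have a pair of FLEX cores, and *mug42* has 1 FLEX core.
*mug143*, chrI:1549828-1550077, plus strand: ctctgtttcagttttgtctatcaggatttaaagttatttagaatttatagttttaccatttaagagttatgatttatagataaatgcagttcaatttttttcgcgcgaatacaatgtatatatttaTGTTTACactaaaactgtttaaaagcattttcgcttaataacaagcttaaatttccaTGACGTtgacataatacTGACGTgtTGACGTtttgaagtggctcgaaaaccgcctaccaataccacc
*mug147*, chrII:4105989-4106238, minus strand: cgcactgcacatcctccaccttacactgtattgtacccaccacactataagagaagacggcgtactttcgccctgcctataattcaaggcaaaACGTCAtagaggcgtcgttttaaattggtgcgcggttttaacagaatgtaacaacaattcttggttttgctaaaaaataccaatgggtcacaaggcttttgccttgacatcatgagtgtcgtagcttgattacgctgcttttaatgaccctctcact
*mug190*, chrIII:532407-532656, plus strand: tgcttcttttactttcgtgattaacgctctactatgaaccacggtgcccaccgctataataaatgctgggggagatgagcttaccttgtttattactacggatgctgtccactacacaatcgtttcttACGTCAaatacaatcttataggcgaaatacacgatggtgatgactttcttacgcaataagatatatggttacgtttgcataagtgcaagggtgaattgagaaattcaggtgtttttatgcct
*mug28*, chrI:1650762-1651011, plus strand: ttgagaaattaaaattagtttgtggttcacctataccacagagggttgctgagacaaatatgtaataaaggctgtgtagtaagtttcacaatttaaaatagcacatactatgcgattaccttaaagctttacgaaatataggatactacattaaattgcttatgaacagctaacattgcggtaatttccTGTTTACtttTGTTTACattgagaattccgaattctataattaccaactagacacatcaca
*mug109*, chrI:3326139-3326388, minus strand: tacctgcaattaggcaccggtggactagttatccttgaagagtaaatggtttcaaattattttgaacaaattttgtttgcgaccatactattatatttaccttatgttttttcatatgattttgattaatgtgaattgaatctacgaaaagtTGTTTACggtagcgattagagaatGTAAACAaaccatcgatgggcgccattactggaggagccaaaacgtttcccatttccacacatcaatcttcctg
*mug42*, chrIII:1514545-1514794, plus strand: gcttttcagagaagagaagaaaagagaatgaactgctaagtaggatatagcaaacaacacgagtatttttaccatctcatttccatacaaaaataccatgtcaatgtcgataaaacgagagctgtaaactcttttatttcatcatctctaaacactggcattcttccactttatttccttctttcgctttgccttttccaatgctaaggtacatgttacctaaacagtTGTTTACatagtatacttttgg

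Values are FPKM (mapped fragments corrected for the length of the transcript and the size of the library), which the authors obtained with Cuffdiff separately for each table of a pair of libraries. The wild type library at 24°C stands in 3 tables under separate scalings, and relative to the heat stress table its values were multiplied by 1.13 beside *mas5Δ* and by 1.02 beside *ssa2Δ*, so ratios were taken within a table. The deleted genes were low, with *mas5* at 36.3 FPKM in *mas5Δ* cells (against 470.3 FPKM) and *ssa2* at 55.0 FPKM in *ssa2Δ* cells (against 2960 FPKM). The overexpressed *hsf1* had 922 FPKM in *nmt1:hsf1* cells, against 93.4 FPKM. No source names the columns of the *nmt1:hsf1* table, and they were read in the order of the other 3 tables. With 1 library per condition no difference has a replicate, no test was possible, and "up" or "down" below means a ratio of more than 2-fold between both libraries, among genes above 0 in both. The sequencing depth is unknown, and ratios that rest on values under 0.1 FPKM are not interpreted. Reads are not stated to have been assigned by strand, and 97 of the 138 members (70.3%; all genes 67.1%) share their locus with another listed gene, so that their reads may not be separable from those of a neighbour. Since RNA came from whole cultures, a large change in few cells and a small change in all cells cannot be told apart.

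The members were expressed at low but mostly measurable levels in growing cells. In wild type cells at 24°C (heat stress table) their median was 9.65 FPKM, against 26.8 FPKM over all listed genes and 40.0 FPKM over protein-coding genes. In this library 5 members were listed at 0, 17 were under 1 FPKM, and 4 were above 100 FPKM (2.9%; all genes 17.6%). The BAR domain protein gene *mug64* was the highest at 320.2 FPKM. It was followed by *mug134*, which encodes the phosphatase inhibitor Igo1, at 149.6 FPKM, *mug33* at 105.1 FPKM, *mug69*, an ENV10 family protein gene, at 102.8 FPKM, and *mug80*, which encodes the cyclin Clg1, at 79.6 FPKM. *mug168* at 75.2 FPKM, *meu29* at 65.9 FPKM and the glycerate kinase gene *mug58* at 63.7 FPKM came next. These members were thus expressed above the median gene without any meiotic stimulus. At the other end, *mug116* was listed at 0 in every library, and *mug95*, *mug96*, *mug112* and the non-coding *meu20* were listed at 0 in wild type at 24°C but not in *mas5Δ* cells. The non-coding *meu11*, *mug97* and *mug128* were listed at 0 in some other libraries, and the remaining 130 members were above 0 in every column. The median was higher in each of the other libraries, among members and among all genes. For members it was 13.5 FPKM in heat-stressed cells (all genes 28.5 FPKM), 13.5 FPKM in *mas5Δ* cells (all genes 32.3 FPKM) and 12.5 FPKM in *ssa2Δ* cells (all genes 30.3 FPKM). Wild type in the tables of both mutants had member medians of 10.9 FPKM (all genes 30.2 FPKM) and 9.8 FPKM (all genes 27.2 FPKM). In MM it was 23.4 FPKM in *nmt1:hsf1* cells (all genes 42.1 FPKM), against 13.5 FPKM in wild type cells (all genes 30.6 FPKM).

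In each of the 5 comparisons the share of members up was above that of all listed genes, but for *ssa2Δ* this was not so against wild type cells in MM. Upon heat stress 26 of 132 members were up (19.7%; all genes 14.1%) and 16 were down (12.1%; all genes 10.3%). In *mas5Δ* cells 18 of 131 were up (13.7%; all genes 7.25%) and 3 down (2.29%; all genes 5.15%). In *ssa2Δ* cells 23 of 132 were up (17.4%; all genes 10.9%) and 5 down (3.79%; all genes 4.14%). Set against wild type in MM instead, 13 of 132 members were up in *ssa2Δ* cells (9.85%, all genes 10.6%) and 15 were down (11.4%, all genes 5.89%), and 12 of 134 were up in *mas5Δ* cells (8.96%, all genes 8.53%) and 9 were down (6.72%, all genes 4.72%), the medium being part of these differences. Overexpression of *hsf1* gave the most, with 53 of 132 members up (40.2%; all genes 27.1%) and 22 down (16.7%; all genes 16.7%). Wild type cells in MM had 26 of 130 members up relative to wild type cells in rich medium (20.0%; all genes 9.52%) and 3 down (2.31%; all genes 6.47%), from values scaled in separate tables. The median log2 ratio of the members was 0.20 (all genes 0.01) upon heat stress, 0.18 (all genes 0.04) in *mas5Δ* cells, 0.24 (all genes 0.05) in *ssa2Δ* cells, 0.64 (all genes 0.09) in *nmt1:hsf1* cells and 0.28 (all genes 0.13) in MM. The heat stress, *mas5Δ*, *ssa2Δ* and MM comparisons share the wild type library at 24°C, so the chance values of that library enter all of them in the same direction. Among the members alone in their locus 7 of 40 were up upon heat stress and 7 were down (17.5% each), against 12.5% and 12.9% of all genes alone in their locus. In *nmt1:hsf1* cells 13 of 41 such members were up (31.7%), against 20.0% of all such genes. Of the 135 members with a ratio in at least 1 of the comparisons, 97 were past 2-fold in 1 or more (71.9%, all genes 59.6%) and 38 in none. The counts include a few ratios with a value under 0.1 FPKM on 1 side, namely those of *mug27* and *mug97* against wild type at 24°C, *mug93* in heat-stressed cells, *mug68* in *mas5Δ* cells, and *meu26* and *meu31* in *nmt1:hsf1* cells.

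**Figure D1:**
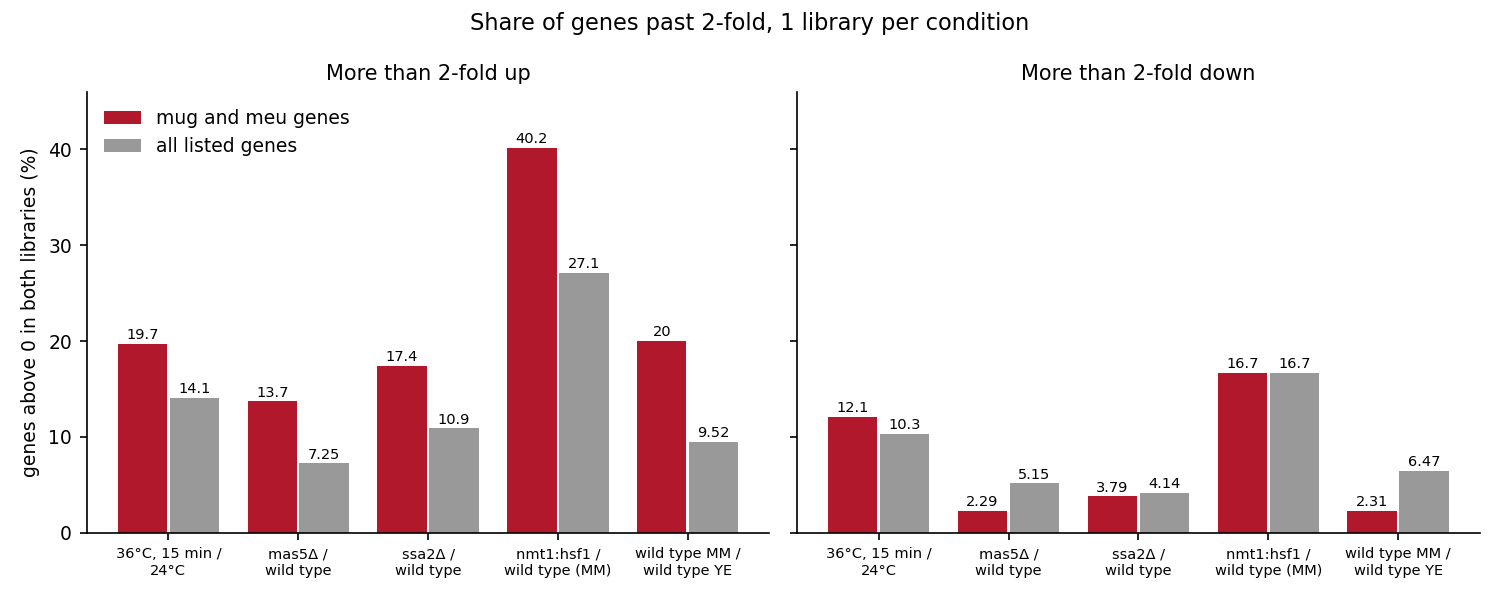
Percentage of genes more than 2-fold up (left) and down (right) in each of 5 comparisons of single libraries, for the *mug* and *meu* genes (red) and all listed genes (grey), among genes above 0 FPKM in both libraries. The share of members up is above that of all genes in each comparison, for example 40.2% against 27.1% in *nmt1:hsf1* cells and 20.0% against 9.52% in MM. The shares down in *nmt1:hsf1* cells are 16.7% in both sets.

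Heat stress brought a few members from low levels to among the highest of the whole set. *mug143*, a gene without a described role, had 249.6 FPKM in heat-stressed cells, against 0.148 FPKM in wild type at 24°C, a log2 ratio of 10.72. It is also the member with 3 CRE cores in its promoter window. Its locus holds 2 other listed genes, whose log2 ratios were 1.25 and 1.17. *mug35*, which shares its locus with the transcription factor subunit gene *tfg3*, had 629 FPKM at 36°C, against 17.2 FPKM at 24°C (log2 ratio 5.19), and was the highest member of any library. The *tfg3* gene itself had 174 FPKM at 36°C, against 82.1 FPKM at 24°C. *mug147* had 148 FPKM in heat-stressed cells, against 6.44 FPKM in unstressed cells (log2 ratio 4.52), and a non-coding RNA in its locus, SPNCRNA.1668, had 60.0 against 7.75 FPKM. *mug153* had 18.0 FPKM at 36°C, against 0.911 FPKM at 24°C (log2 ratio 4.30), beside the far more abundant SPACUNK4.16c, which had 513 against 53.0 FPKM. For these genes the part of the neighbour's reads in the values was not tested.

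Of the members up upon heat stress 7 lie alone in their locus. *mug190*, which encodes a tricalbin, a C2 domain protein that ties the endoplasmic reticulum to the plasma membrane, had 114 FPKM at 36°C, against 16.3 FPKM at 24°C (log2 ratio 2.81). *mug191*, an alpha-1,6-mannanase gene, had 127 FPKM at 36°C, against 23.6 FPKM at 24°C (log2 ratio 2.43). *mug180*, which encodes the sterol deacetylase Say1, had 20.0 FPKM at 36°C, against 4.00 FPKM at 24°C (log2 ratio 2.32). *mug63*, which encodes an inhibitor of the V-type ATPase, reached 38.1 FPKM at 36°C, against 15.6 FPKM at 24°C (log2 ratio 1.29). *mug9* had 16.3 FPKM at 36°C, against 4.67 FPKM at 24°C (log2 ratio 1.80), *mug99* had 48.8 FPKM, against 24.1 FPKM (log2 ratio 1.02), and *mug8* had 28.2 FPKM, against 13.95 FPKM (log2 ratio 1.01), and none of these 3 has a role given. Genes that share a locus were also up, such as the adducin gene *mug14* (62.4 against 13.7 FPKM), the kinase family gene *mug51* (44.0 against 16.0 FPKM) and *mug66*, which encodes the autophagy protein Atg101 (51.9 against 20.4 FPKM). Of 14 members of membrane traffic and transport 3 were up (21.4%), against 19.7% of all members and 14.1% of all genes. None of the 8 members of chromosomes and the nucleus, 8 of RNA and translation, and 7 of protein folding and turnover was past 2-fold. Among all genes 14.1% were up and 10.3% were down, which amounts to few genes in groups of this size.

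The 16 members down upon heat stress were mostly of low abundance. Among those averaging 5 FPKM or more the lowest ratio belonged to *mug42*, a gene alone in its locus, with 3.36 FPKM at 36°C, against 15.1 FPKM at 24°C (log2 ratio -2.17). The non-coding RNA *meu19* had 2.60 FPKM at 36°C, against 9.46 FPKM at 24°C, and *mug117* had 2.90 FPKM, against 8.91 FPKM. The transporter gene *mug73* had 4.61 FPKM at 36°C, against 13.7 FPKM at 24°C (log2 ratio -1.57). *mug15* had 3.72 FPKM, against 9.74 FPKM. Below that mean, *mug131* had 0.612 FPKM at 36°C, against 7.35 FPKM at 24°C. With a mean of at least 10 FPKM over both libraries, 15 of 76 members were up (19.7%; all genes 11.9%) and 3 were down (3.95%; all genes 8.94%).

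**Figure D2:**
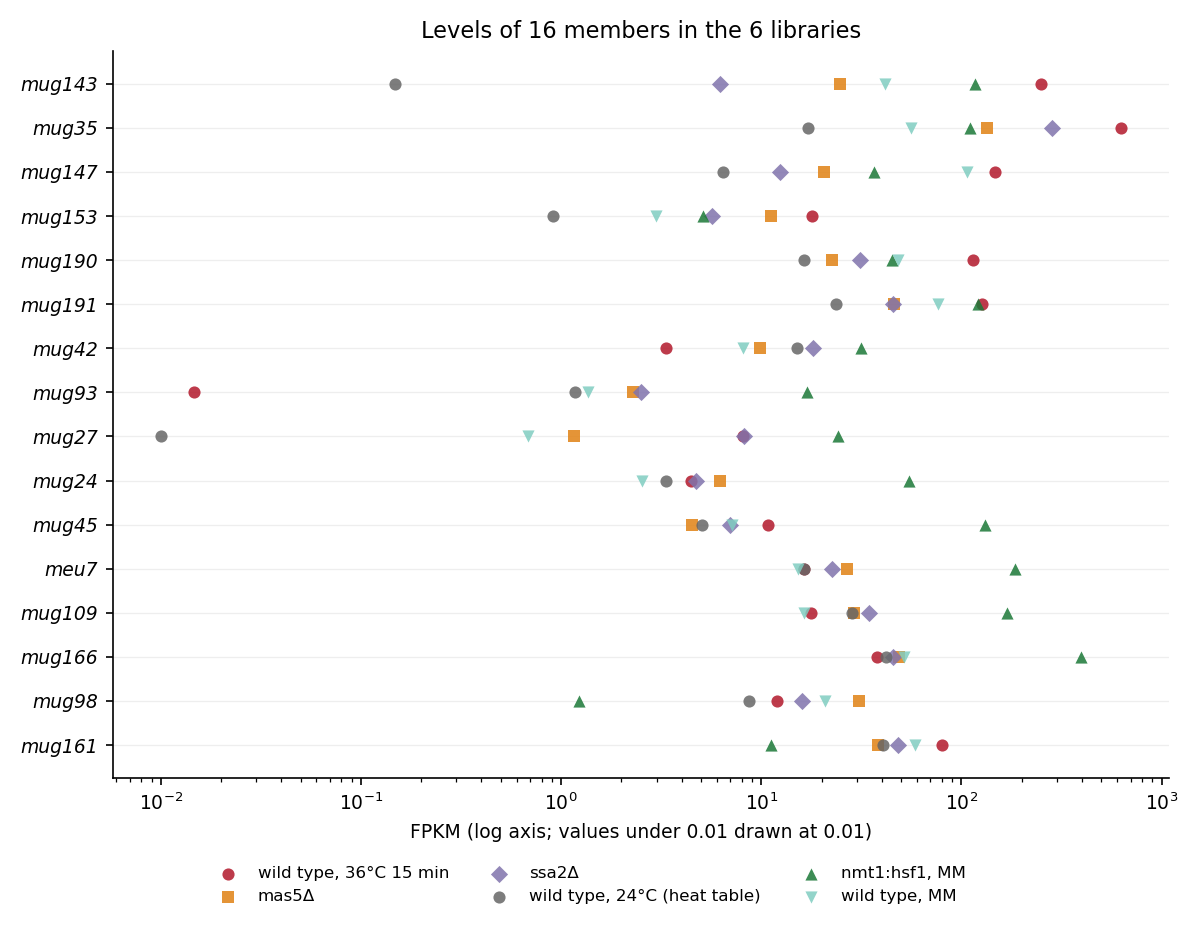
Level of 16 members (rows) in the 6 libraries, in FPKM on a log axis, each symbol being 1 library and the wild type value at 24°C being that of the heat stress table. The upper 6 genes are lowest in wild type at 24°C and highest in heat-stressed cells (*mug143* at 249.6 against 0.148 FPKM), whereas *mug24*, *mug45*, *meu7*, *mug109* and *mug166* are highest in *nmt1:hsf1* cells.

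The chaperone mutants at 24°C were compared with the same wild type library, each within its own table. In *mas5Δ* cells *mug143* had 24.6 FPKM, against 0.157 FPKM in wild type (log2 ratio 7.29), and in *ssa2Δ* cells it had 6.23 FPKM, against 0.151 FPKM (log2 ratio 5.37). *mug35* had 134 FPKM in *mas5Δ* cells, against 19.4 FPKM in wild type (log2 ratio 2.79), and 284 FPKM in *ssa2Δ* cells, against 17.5 FPKM in wild type (log2 ratio 4.03). *mug153* had 11.2 FPKM in *mas5Δ* cells, against 1.02 FPKM, and 5.68 FPKM in *ssa2Δ* cells, against 0.925 FPKM. *mug143*, *mug35* and *mug153* were thus up in both unstressed mutants, to a lower level than in heat-stressed cells. Other members that were high upon heat stress were not up in both. *mug147* had 20.5 FPKM in *mas5Δ* cells, against 7.25 FPKM (log2 ratio 1.50), but 12.4 FPKM in *ssa2Δ* cells, against 6.54 FPKM (log2 ratio 0.92). *mug190* had 22.6 FPKM in *mas5Δ* cells, against 18.4 FPKM (log2 ratio 0.30), and 31.1 FPKM in *ssa2Δ* cells, against 16.6 FPKM (log2 ratio 0.91). The shared wild type value enters each of these ratios.

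Besides these genes, *meu1-1*, *meu31*, *mug9*, *mug27* and *mug63* were up in heat stress, *mas5Δ* and *ssa2Δ* alike, and *meu6*, a pleckstrin homology domain protein gene, was down in all of them. *mug63* had 36.1 FPKM in *mas5Δ* cells, against 17.6 FPKM, and 32.1 FPKM in *ssa2Δ* cells, against 15.8 FPKM in wild type. *mug9* had 10.7 FPKM in *mas5Δ* cells, against 5.25 FPKM, and 18.1 FPKM in *ssa2Δ* cells, against 4.74 FPKM. The protein kinase gene *mug27* (*slk1*), which acts in forespore membrane formation, had 8.08 FPKM in heat-stressed, 1.16 FPKM in *mas5Δ* and 8.19 FPKM in *ssa2Δ* cells, while its wild type values were under 0.1 FPKM, so that its ratio is not interpreted. It shares its locus with 5 other listed genes, and 1 of these, SPNCRNA.583, had 122 FPKM at 36°C, against 8.12 FPKM at 24°C.

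Some members differed more in 1 mutant than in the other, which was not tested. *mug108* had 27.1 FPKM in *mas5Δ* cells, against 2.94 FPKM in wild type (log2 ratio 3.20), but 3.31 FPKM in *ssa2Δ* cells, against 2.65 FPKM (log2 ratio 0.32). Beside *mug108*, SPAC29A4.22 of the same locus had 18.7 FPKM in *mas5Δ* cells and was listed at 0 in wild type at 24°C, and the part of its reads in the value of *mug108* was not tested. The non-coding RNA *meu3*, alone in its locus, had 15.1 FPKM in *mas5Δ* cells, against 2.65 FPKM (log2 ratio 2.52), and 3.79 FPKM in *ssa2Δ* cells, against 2.39 FPKM (log2 ratio 0.66). In the other direction, *mug14* had 92.4 FPKM in *ssa2Δ* cells, against 13.9 FPKM in wild type (log2 ratio 2.73), and 22.1 FPKM in *mas5Δ* cells, against 15.4 FPKM (log2 ratio 0.52). *mug135* had 69.9 FPKM in *ssa2Δ* cells, against 14.4 FPKM (log2 ratio 2.28), but 8.26 FPKM in *mas5Δ* cells, against 16.0 FPKM (log2 ratio -0.95). Its locus holds the non-coding RNAs SPNCRNA.1108 and SPNCRNA.1109, with log2 ratios of 5.56 and 7.27 in *ssa2Δ* and of 1.55 and 0.51 in *mas5Δ*. Among members averaging 5 FPKM or more the lowest ratios in the mutants were -0.95 for *mug135* in *mas5Δ* and -1.01 for *mug115* in *ssa2Δ* cells. With a mean of at least 10 FPKM, 9 of 79 members were up in *mas5Δ* cells (11.4%; all genes 3.57%) and 0 were down (all genes 4.09%), and 12 of 75 were up in *ssa2Δ* cells (16.0%; all genes 8.32%) and 1 was down (1.33%; all genes 2.0%).

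Overexpression of *hsf1* at 24°C went with the largest number of members past 2-fold, and every role group held at least 1 member that was up. Among RNA-binding protein genes, *mug24* had 54.9 FPKM in *nmt1:hsf1* cells, against 2.54 FPKM in wild type in MM (log2 ratio 4.44), and *mug28* had 23.1 FPKM, against 3.05 FPKM (log2 ratio 2.92). Among signalling genes, *mug109*, which encodes a Rab GTPase-binding protein and is alone in its locus, had 169 FPKM, against 16.3 FPKM (log2 ratio 3.37). The arrestin family gene *mug170* had 64.6 FPKM, against 19.6 FPKM (log2 ratio 1.72). Among glycan enzymes, the alpha-amylase gene *meu7* had 185 FPKM in *nmt1:hsf1* cells, against 15.3 FPKM in wild type (log2 ratio 3.60), and the glucosidase gene *meu17* had 25.6 FPKM, against 2.44 FPKM (log2 ratio 3.39). In the locus of *meu7* the non-coding RNA SPNCRNA.1685 had 214 against 5.89 FPKM, and beside *mug24* SPCC737.08 had 39.2 against 3.91 FPKM. No listed neighbour of *mug28*, *mug170* or *meu17* was up. The part of the neighbours' reads in these values was not tested. The upstream windows of *mug28* and *mug109* printed above each hold a pair of FLEX cores.

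Genes of meiotic chromosomes and spores were also among the members up in *nmt1:hsf1* cells. *meu13*, which encodes the homologous-pairing protein Hop2 and is alone in its locus, had 17.4 FPKM, against 2.86 FPKM in wild type in MM (log2 ratio 2.60). *mug1*, which encodes the dynactin subunit dynamitin, had 13.6 FPKM, against 2.57 FPKM (log2 ratio 2.41), and *mug55*, the gene of a meiotic activator of the anaphase-promoting complex, had 5.57 FPKM, against 1.36 FPKM. The kinase gene *mug27* had 24.1 FPKM, against 0.684 FPKM (log2 ratio 5.14). *meu14*, which encodes a protein of the forespore membrane edge, had 15.6 FPKM, against 4.97 FPKM (log2 ratio 1.66). Not every gene of these groups was up, since the linear element gene *mug20* had 10.2 FPKM, against 6.81 FPKM, and the spore wall assembly gene *mug65* had 34.6 FPKM, against 57.0 FPKM. Of the 8 members annotated to chromosomes and the nucleus 3 were up (37.5%) and 1 was down, and of the 5 annotated to the spore wall and forespore membrane 2 were up (40.0%) and none was down, against 40.2% up among all members and 27.1% among all genes. Several of these genes share a locus with a gene that was also up. Beside *mug1*, SPNCRNA.1198 had 84.0 against 2.15 FPKM, and beside *mug55*, *mug163* had 128 against 8.45 FPKM. Beside *meu14*, SPNCRNA.1663 had 79.2 against 14.8 FPKM, and beside *mug27*, SPNCRNA.1217 had 29.0 against 1.96 FPKM. The part of these neighbours' reads was not tested.

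Members of transport, protein turnover and metabolism were divided. The acetate transporter gene *mug86* had 73.8 FPKM in *nmt1:hsf1* cells, against 15.4 FPKM in wild type in MM (log2 ratio 2.26), and the transporter gene *mug73* had 61.6 FPKM, against 13.1 FPKM (log2 ratio 2.24). *mug184*, which the study lists among its Hsp40 chaperones and which is alone in its locus, had 111 FPKM, against 17.7 FPKM (log2 ratio 2.65). The ubiquitin ligase gene *mug30* had 66.2 FPKM, against 10.2 FPKM (log2 ratio 2.70). *mug158*, which encodes the ergothioneine synthesis enzyme Egt1, had 82.1 FPKM, against 17.7 FPKM (log2 ratio 2.21). The other co-chaperone gene of the set, *mug185*, had 70.2 FPKM, against 39.0 FPKM, which is less than 2-fold. In contrast, the NADHX epimerase gene *mug182* had 4.12 FPKM in *nmt1:hsf1* cells, against 22.4 FPKM in wild type (log2 ratio -2.45), and the aldehyde dehydrogenase gene *meu8* had 2.33 FPKM, against 8.85 FPKM (log2 ratio -1.93). Beside *mug86*, SPAC5D6.12 had 66.7 against 28.3 FPKM, while no listed neighbour of *mug30* or *mug158* was up.

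Of 66 members without a role given that had a ratio, 29 were up (43.9%), against 40.2% of all members and 27.1% of all genes, and several reached high levels. *mug166*, alone in its locus, had 394.2 FPKM in *nmt1:hsf1* cells, against 51.8 FPKM in wild type in MM (log2 ratio 2.93). *mug45* had 132 FPKM, against 7.15 FPKM (log2 ratio 4.20), *mug163* had 128 FPKM, against 8.45 FPKM (log2 ratio 3.93), and *mug37* had 93.6 FPKM, against 7.16 FPKM (log2 ratio 3.71). *meu27* had 49.7 FPKM, against 3.18 FPKM. *mug96*, listed at 0 in wild type at 24°C in rich medium, had 14.5 FPKM in *nmt1:hsf1* cells, against 0.343 FPKM in wild type in MM. The AMP-binding enzyme gene *mug62* had 13.1 FPKM, against 0.411 FPKM (log2 ratio 5.00). In the other 5 libraries *mug166* lay between 37.7 FPKM (heat stress) and 51.8 FPKM (wild type in MM). Beside *mug62*, the non-coding RNA SPNCRNA.676 had 22.7 FPKM in *nmt1:hsf1* cells, against 2.59 FPKM in wild type in MM. Beside *mug45*, SPBP8B7.05c ran opposite, with 36.2 against 176 FPKM. For members that share a locus the part of the neighbours' reads was not tested.

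The members down in *nmt1:hsf1* cells included genes that were well expressed in wild type. *mug161*, which encodes a CwfJ family splicing factor, had 11.2 FPKM in *nmt1:hsf1* cells, against 58.4 FPKM in wild type in MM (log2 ratio -2.38). *mug98* had 1.23 FPKM, against 20.8 FPKM (log2 ratio -4.08), beside the non-coding RNA SPNCRNA.1576 of the same locus, which had 273 against 23.0 FPKM and so ran opposite to it. *mug33* had 69.9 FPKM, against 198 FPKM (log2 ratio -1.50). The BRCT domain gene *mug176* had 17.7 FPKM, against 46.8 FPKM, and *mug84*, which encodes a subunit of the enzyme that starts GPI anchor synthesis, had 18.9 FPKM, against 55.7 FPKM. With a mean of at least 10 FPKM, 41 of 96 members were up (42.7%; all genes 26.4%) and 14 were down (14.6%; all genes 15.2%).

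The heat stress and *nmt1:hsf1* comparisons share no library, and they also differ in medium and duration. The heat stress was a shift of minutes in rich medium, whereas the authors grew *nmt1:hsf1* cells for many hours without thiamine. What these differences add to the overlaps was not tested. Of the 26 members up upon heat stress, 10 were up in *nmt1:hsf1* cells (38.5%, and 18.9% of the 53 up there), namely *meu1-1*, *mug2*, *mug27*, *mug45*, *mug51*, *mug99*, *mug108*, *mug126*, *mug143* and *mug150*, and 2 were down (*meu31* and *mug147*). Of those with a ratio in both comparisons, 40.0% of the members up upon heat stress were also up in *nmt1:hsf1* cells, against 44.4% among all genes. *mug143* had 117 FPKM in *nmt1:hsf1* cells, against 41.4 FPKM in wild type in MM (log2 ratio 1.50). *mug35* had 110 FPKM, against 56.2 FPKM (log2 ratio 0.96), and *mug190* had 45.2 FPKM, against 48.1 FPKM (log2 ratio -0.09). *mug147* ran the other way, with 36.7 FPKM in *nmt1:hsf1* cells, against 107 FPKM in wild type (log2 ratio -1.55). Wild type cells in MM held *mug143*, *mug35*, *mug147* and *mug190* at higher levels than wild type cells in rich medium did, by values of separate tables.

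Members down upon heat stress were divided in *nmt1:hsf1* cells, and as large a share of them was up there as of all members. Of the 16, 6 were up there (37.5%) and 7 were down (43.8%). With a ratio in both comparisons, 40.0% of the members down upon heat stress were up in *nmt1:hsf1* cells, against 16.0% among all genes, and 52 of the 130 members were up there whatever their ratio upon heat stress (40.0%). The 6 genes were *meu6*, *mug42*, *mug62*, *mug73*, *mug93* and *mug131*. *mug42*, for example, had 3.36 FPKM at 36°C, against 15.1 FPKM at 24°C, but 31.6 FPKM in *nmt1:hsf1* cells, against 8.15 FPKM in wild type in MM (log2 ratio 1.96). *mug131* had 14.7 FPKM in *nmt1:hsf1* cells, against 6.41 FPKM in wild type (log2 ratio 1.20).

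**Figure D3:**
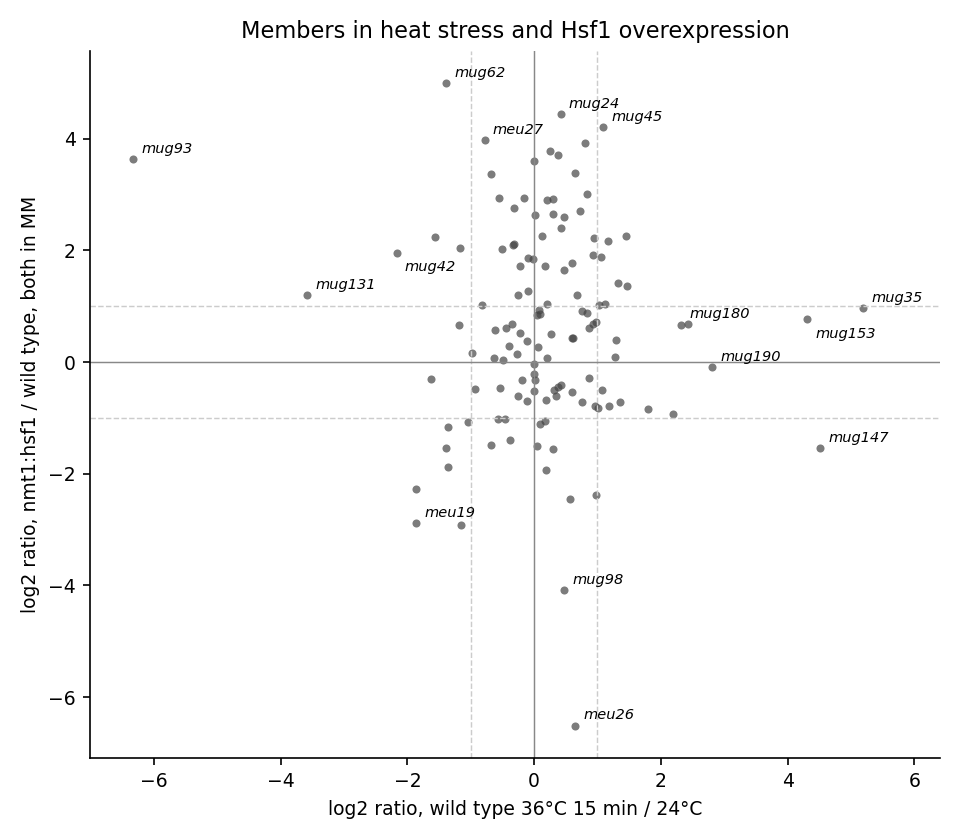
Log2 ratio of each member upon heat stress (x axis, wild type at 36°C over 24°C) and in *nmt1:hsf1* cells over wild type in MM (y axis), each point being 1 gene from single libraries, with dashed lines at 2-fold. Plotted are 127 members, while *meu31*, *mug27* and *mug143* lie outside the axes. *mug24* and *meu27* lie high between the vertical dashed lines, *mug147* lies to the right and below, and *mug42* and *mug131* lie to the left and above.

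Members with and without the FLEX core were also counted apart. This split was chosen after the motif counts were seen, and no difference between both sets was tested. The heat stress, *mas5Δ*, *ssa2Δ* and MM comparisons all divide by the wild type library at 24°C, so their splits are not independent. In that library (heat stress table) the median was 11.8 FPKM with the core and 9.74 FPKM without. Medians with and without were 12.2 and 14.7 FPKM in heat stress, 10.8 and 18.0 in *mas5Δ*, and 12.4 and 16.0 in *ssa2Δ*. In MM they were 12.1 and 17.7 FPKM in wild type and 24.0 and 23.6 in *nmt1:hsf1*. Upon heat stress 5 of 61 members with the core were up (8.2%) and 11 were down (18.0%), whereas 21 of 67 without it were up (31.3%) and 2 were down (2.99%). Over all protein-coding genes with the core 8.7% were up and 11.5% were down, and without it 11.1% were up and 9.03% were down. The median log2 ratio upon heat stress was 0.01 for members with the core and 0.47 for those without. Of the 13 protein-coding members down upon heat stress, the 11 with the core were *meu6*, *meu29*, *mug42*, *mug62*, *mug73*, *mug93*, *mug103*, *mug113*, *mug117*, *mug130* and *mug131*, and the other 2 were *mug15* and *mug68*. In *mas5Δ* cells 3 of 60 members with the core were up (5.0%), against 13 of 67 without (19.4%), where all genes had 3.87% and 4.4%. In *ssa2Δ* cells the shares were closer, with 9 of 60 members with the core up (15.0%), against 12 of 68 without (17.6%), where all genes had 6.3% and 7.24%. In MM 7 of 60 with the core were up (11.7%), against 17 of 67 without (25.4%), where all genes had 7.86% and 8.77%. In *nmt1:hsf1* cells the order was turned, with 29 of 62 members with the core up (46.8%), against 23 of 67 without (34.3%), where all genes had 24.0% and 21.6%. CRE cores were found in 4 of the 26 members up upon heat stress (15.4%), against 17.2% among all genes up.

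**Figure D4:**
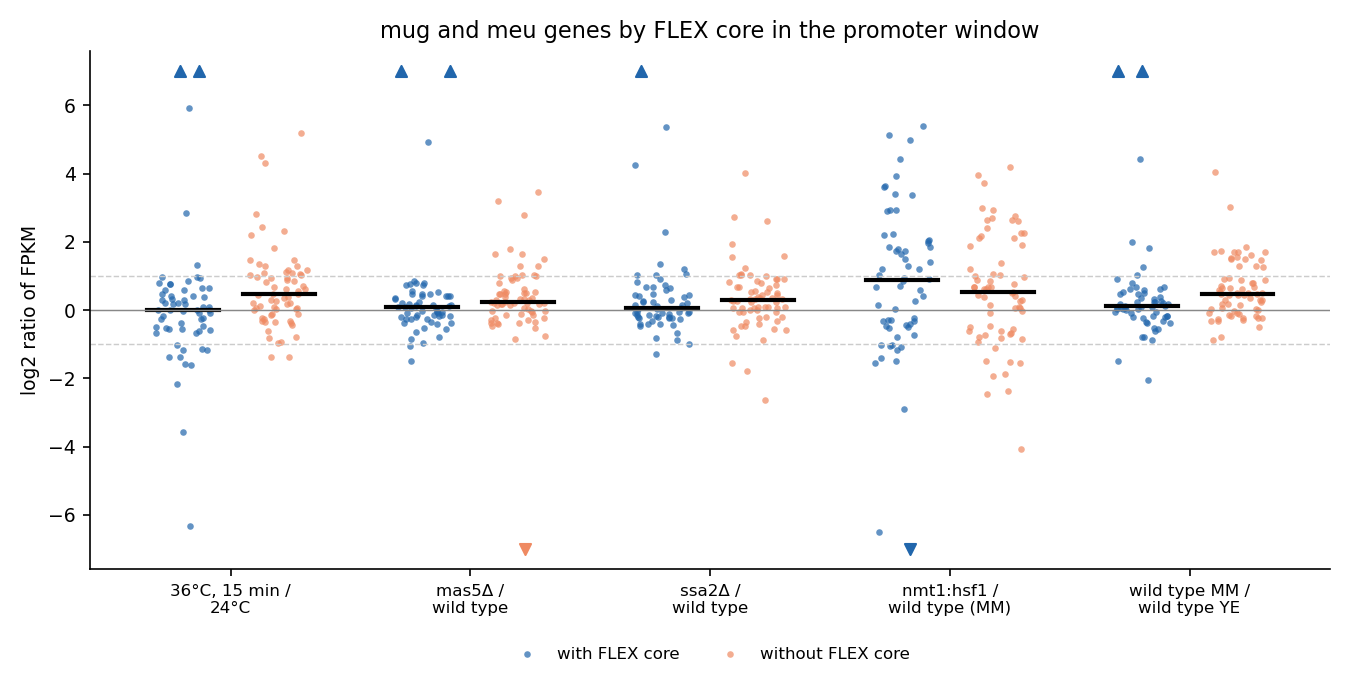
Log2 ratio of each protein-coding member in 5 comparisons of single libraries, for members with a FLEX core in the promoter window (blue) and without (orange), with black bars at the medians and dashed lines at 2-fold. Triangles mark 9 values beyond the axis, and the medians upon heat stress are 0.01 with the core and 0.47 without it.

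In minimal medium, wild type cells had higher values of several of the same genes than in rich medium, from tables scaled separately. *mug143* had 41.4 FPKM in MM, against 0.148 FPKM in rich medium (log2 ratio 8.12), and *mug147* had 107 FPKM, against 6.44 FPKM (log2 ratio 4.06). *mug111*, alone in its locus, had 76.8 FPKM in MM, against 9.56 FPKM in rich medium (log2 ratio 3.01). It lay between 8.21 and 10.6 FPKM in the heat-stressed, *mas5Δ* and *ssa2Δ* libraries and had 99.2 FPKM in *nmt1:hsf1* cells, so that both libraries in MM were above all of those in rich medium. Among members averaging 5 FPKM or more the lowest ratio belonged to *mug113*, with 6.13 FPKM in MM, against 17.4 FPKM in rich medium (log2 ratio -1.50). The median over all genes was 0.13 in this comparison, and with that shift removed 25 members were up (19.2%) and 4 were down (3.08%). Among all genes 7.7% were up and 8.25% were down after the same step. With a mean of at least 10 FPKM, 15 of 77 members were up (19.5%; all genes 7.96%) and 1 was down (1.3%; all genes 3.7%).

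The 5 non-coding members differed among themselves. *meu3* and *meu19*, both alone in their locus, were down upon heat stress and in *nmt1:hsf1* cells and up in *mas5Δ* cells. They were also up in wild type in MM, the control of *nmt1:hsf1* cells (log2 ratios 2.05 and 1.49). The coding *meu29*, *mug15*, *mug68*, *mug113* and *mug130* were likewise down in both heat stress and *nmt1:hsf1* cells. *meu19* had 29.6 FPKM in *mas5Δ* cells, against 10.7 FPKM, and 3.59 FPKM in *nmt1:hsf1* cells, against 26.5 FPKM in wild type in MM (log2 ratio -2.88). *meu3* had 2.02 FPKM in *nmt1:hsf1* cells, against 9.78 FPKM in wild type in MM (log2 ratio -2.27). *meu16* ran opposite, with 25.03 FPKM in *nmt1:hsf1* cells, against 1.83 FPKM (log2 ratio 3.78). *meu11* was listed at 0 in wild type in MM and had 8.73 FPKM in *nmt1:hsf1* cells, and *meu20* was listed at 0 in all libraries but *mas5Δ* and wild type in MM. Since libraries were made from polyadenylated RNA, transcripts without a poly(A) tail are not represented.

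Of 39 other genes of the meiotic programme, 14 were up and 5 were down among 37 with a ratio in *nmt1:hsf1* cells (37.8% and 13.5%, all genes 27.1% and 16.7%), with a median of 0.18. Upon heat stress 4 were up and 3 down (10.8% and 8.11%, all genes 14.1% and 10.3%). In *mas5Δ* cells 6 of 36 were up (16.7%, all genes 7.25%) and none was down, and in *ssa2Δ* cells 3 of 37 were up (8.11%, all genes 10.9%) and 1 was down. By class, 6 of 11 sporulation genes (54.5%, median log2 ratio 1.91), 5 of 12 regulators (41.7%, median 0.48) and 3 of 14 genes of recombination and chromosomes (21.4%, median 0.09) were up in *nmt1:hsf1* cells. *spo5* had 77.1 FPKM, against 5.14 FPKM in wild type in MM (log2 ratio 3.91), and *spo6* had 65.0 FPKM, against 8.12 FPKM (log2 ratio 3.00). The regulators were divided, since *mei4* had 20.2 FPKM in *nmt1:hsf1* cells, against 8.35 FPKM (log2 ratio 1.28), *mmi1* had 104 FPKM, against 24.0 FPKM (log2 ratio 2.11), but *mei2* had 7.29 FPKM, against 40.5 FPKM (log2 ratio -2.47). *mfr1*, which encodes a meiotic activator of the anaphase-promoting complex, was listed at 0 in wild type in both media and had 90.2 FPKM in *nmt1:hsf1* cells. Of the 12 regulators with a ratio upon heat stress, 2 were up and 2 were down (16.7% each, all genes 14.1% and 10.3%). There *mei2* had 1.39 FPKM, against 12.8 FPKM at 24°C (log2 ratio -3.21), and *ste11* had 8.04 FPKM, against 15.9 FPKM. In contrast, *cuf2* had 5.74 FPKM, against 0.546 FPKM (log2 ratio 3.40), and *atf21* had 6.92 FPKM, against 2.95 FPKM (log2 ratio 1.23). The gene of Mei4, the factor of the FLEX element, had 6.14 FPKM at 36°C, against 6.18 FPKM at 24°C. *mei4*, *mfr1*, *spo5*, *spo6* and *cuf2* each share their locus with 1 other listed gene and *atf21* with 2. The part of these neighbours' reads in the values was not tested.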

How the data were processed

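Polyadenylated RNA of 6 cultures was sequenced, with 1 library per condition. The authors mapped the reads with TopHat and deposited 4 Cuffdiff tables of FPKM values, each scaled over its own pair of libraries. The versions and the genome build are not given in the sources used here. The deposited columns of log2 fold change, test statistic, p-value and q-value hold the authors' comparisons and were not used as results, though deposited log2 ratios fixed which column held which library in 3 tables.

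Log2 ratios were computed from the FPKM as given, where neither library was at 0, and genes past 2-fold were counted among the members and among all 7008 listed genes. Without replicates no test was run, and counting error could not be given because the depth is unknown. Named genes were, per comparison, the 5 largest ratios in each direction among members with a mean of at least 5 FPKM, the 8 highest members in wild type at 24°C, members in the same direction in heat stress, *mas5Δ* and *ssa2Δ*, members listed at 0 in wild type at 24°C and above 5 FPKM elsewhere, and members with a role. Other members, such as *mug37*, *mug163*, *mug166* and *mug131*, were named after their values were seen. The members and gene lists were chosen with earlier results of these data known. Gene annotations and sequences came from RefSeq ASM294v3, in which all 138 identifiers were matched. The log2 ratios and the counts past 2-fold were checked on simulated data. The sequence searches, locus assignments and gene groups were not. The software was Python 3.11.15, numpy 2.4.6, pandas 2.3.3, scipy 1.17.1 and matplotlib 3.10.9.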

Additional observations from a re-analysis of the deposited data

How the results depend on the processing

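Alternatives were a pseudocount of 1 FPKM, centring on the median of all genes, means of at least 1 and of at least 10 FPKM, members alone in their locus, values with deposited status OK, the mutants against wild type in MM, and other tables for the wild type in rich medium. Counts of members past 2-fold moved, and the reason was not tested. Shares moved in some settings and held in others. Members down in heat stress made up 12.1% in the main counts, 3.95% under the 10 FPKM filter and 17.5% alone in the locus. Members up in heat stress stayed at 19.7% under the same filter (all genes 11.9%). A pseudocount of 1 FPKM lowered this share to 13.0%, against 11.7% of all genes, so that the excess was small in that setting. With a mean of at least 10 FPKM, members up and down were 15 and 3 in heat stress, 9 and 0 in *mas5Δ*, 12 and 1 in *ssa2Δ*, and 15 and 1 in MM, and 14 were down in *nmt1:hsf1*. Alone in the locus they were 7 and 7 in heat stress (17.5% each, all such genes 12.5% and 12.9%). In *mas5Δ* they were 6 and 0 (15.0% and 0.0%, all such genes 7.12% and 5.0%). In *ssa2Δ* they were 6 and 0 (15.0% and 0.0%, all such genes 8.72% and 4.13%). In *nmt1:hsf1* they were 13 and 5 (31.7% and 12.2%, all such genes 20.0% and 19.9%). In MM they were 9 and 0 (22.5% and 0.0%, all such genes 10.4% and 6.32%). A mean of at least 1 FPKM left 1 member down in *mas5Δ* (0.806%, all genes 4.97%). A pseudocount of 1 FPKM gave 13 up and 2 down in *ssa2Δ* (9.42% up, all genes 8.96%). Against wild type in MM, 9 members were down in *mas5Δ*, while *ssa2Δ* had 13 up (9.85%, all genes 10.6%), 15 down (11.4%, all genes 5.89%) and a median of -0.05, so that the members' share up was no longer above that of all genes. The cause was not tested, and the other medium is part of the difference. With the rich medium values of the *mas5Δ* table, 5 members were down in MM (3.85%, all genes 8.95%) and the median was 0.11 (all genes -0.04). No paired analysis was possible because each group has a single replicate number and 1 library, and for the same reason no library could be left out. Of 898 ratios of single members under the pseudocount or the centring, 37 moved, and 0 of those past 2-fold turned to the other direction. The depth is unknown, so no detection limit could be set for values under 1 FPKM.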

Other observations

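The *mug* and *meu* genes were also read apart. In *nmt1:hsf1* cells 12 of 22 *meu* genes with a ratio were up (54.5%) and 6 were down (27.3%), and 41 of 110 *mug* genes were up (37.3%) and 16 were down (14.5%), against 27.1% and 16.7% of all genes. Upon heat stress 2 of 23 *meu* genes were up (8.7%) and 5 were down (21.7%), and 24 of 109 *mug* genes were up (22.0%) and 11 were down (10.1%), against 14.1% and 10.3% of all genes. The difference between both names was not tested.

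Mmi1, which removes meiotic transcripts in growing cells, recognises a region rich in the hexamer TTAAAC. In the annotated exons of the reference, 46.6% of the protein-coding members held at least 1 such hexamer, against 49.4% of all protein-coding genes. The members were shorter, with a median of 1526 bases, against 1680 bases. Per kilobase they held 0.445 hexamers, against 0.411 over all protein-coding genes. The most copies were found in *mug45*, with 5, which had 132 FPKM in *nmt1:hsf1* cells, against 7.15 FPKM in wild type cells in MM. It was followed by *mug4*, *mug10*, *mug62* and *mug81* with 4 copies each. Their log2 ratios in *nmt1:hsf1* cells were 1.72 for *mug4*, 5.00 for *mug62* and 1.28 for *mug81*, but -0.62 for *mug10*. Whether the copies go with the ratios was not tested. The hexamer search was added after the data were seen.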
